A study of Mus musculus with 18 samples.

Results

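The second day of myotube maturation in wild-type (WT) cells was described from 4 of the 18 RNA-seq libraries of a mouse series, the 2 labelled WT day 2 against the 2 labelled WT day 1. Muscle stem cells (MuSCs), which lie dormant beside the fibres and rebuild muscle after injury, were taken from 4-month-old mice with the strain label C57BL/6, expanded in T cell conditional medium, and collected 2 days or 1 day after a change to differentiation medium. The mice were semi-cloned, that is, raised from oocytes that received a haploid embryonic stem cell in place of a sperm, and the haploid line of all genotypes, WT included, carries deletions of the H19-DMR and IG-DMR, control regions of imprinted gene clusters. The series also holds DSM-TKO cells (TKO), in which 1 copy each of Dmpk, Six5 and Mbnl1 is mutated, and DSMD-QKO cells (QKO), in which 1 copy of Dmwd is mutated as well, both models of myotonic dystrophy type 1. They serve here to place the WT change. The p-values also rest on them, since the spread was estimated over all 18 libraries. A fit of the 4 WT day 1 and day 2 libraries alone called fewer genes, as given below. Nothing states that the 2 libraries of a day came from separate mice or cultures, so the spread behind the p-values may be technical.

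As background, MuSC progeny that leave the cell cycle switch on Myod1 and then Myog, basic helix-loop-helix transcription factors, align and fuse into multinucleated myotubes. The myotubes first assemble sarcomeres from embryonic and cardiac-type protein isoforms. As they mature, perinatal and adult fast isoforms, calcium-release and membrane-excitability proteins and the adult form of the acetylcholine receptor come up. Notch signalling and the Id proteins hold progenitors back from differentiation.

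Depth was 48.7 and 49.5 M reads in the day 2 libraries and 37.7 and 53.6 M reads in the day 1 libraries, so that 1 read on a transcript of 1 kb equals 0.0187 to 0.0265 RPKM (reads per kilobase of transcript scaled to library depth). Muscle identity was high throughout, with Des, the muscle intermediate filament, at 1317 and 1732 RPKM at day 2 and 1133 and 1057 RPKM at day 1. The 13 endothelial markers summed to 1.77 and 2.29 RPKM at day 2 and to 0.876 and 1.27 RPKM at day 1, and the 21 immune markers to 12.4 and 10.7 RPKM at day 2 and to 9.98 and 5.88 RPKM at day 1. The immune sum included Itgam (5.85 and 2.90 RPKM at day 2, 4.50 and 2.55 RPKM at day 1) and Laptm5 (4.53 and 1.04 RPKM at day 2, 3.59 and 1.32 RPKM at day 1), while Ptprc, which marks blood cells, stayed at or under 0.0144 RPKM. Other immune markers were highest in day 2 replicate 2. Lyz2 was at 0.133 and 1.42 RPKM at day 2 and 0 and 0.0345 RPKM at day 1. Cd74 was at 0.214 and 1.475 RPKM at day 2 and 0.406 and 0.519 RPKM at day 1. C1qb was at 0 and 0.223 RPKM at day 2 and 0 at day 1. Of the 6 immune markers tested, 4 were higher in replicate 2 of day 2 than in replicate 1, and 0 were called. In bulk RNA, fewer cells of a type and less RNA per cell cannot be told apart.

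The 2 day 2 libraries stood apart from each other, and each is therefore given on its own. Among 11890 genes tested (RPKM of at least 1 in 2 or more of the 18 libraries), 421 differed at least 2-fold between the day 2 libraries on the log2(RPKM + 1) scale, against 29 between the day 1 libraries. Of the 421, 277 were higher in replicate 2 and 144 were higher in replicate 1. Replicate 2 was nearer than replicate 1 to the mean of the 4 mutant day 2 libraries in 229 of the 277 and in 129 of the 144. Pearson's r, taken over genes and so not over independent replicates, was 0.983 to 0.993 between replicate 2 and these 4 mutant libraries and 0.970 to 0.980 between replicate 1 and the same 4. The r between replicate 2 and the day 1 WT libraries was 0.952 and 0.952, against 0.978 and 0.974 for replicate 1. Among the genes mutated in the mutants, Dmpk was at 255 RPKM in replicate 1 and 271 RPKM in replicate 2. It was at 205 and 220 RPKM in the TKO and 168 and 231 RPKM in the QKO day 2 libraries. Dmwd was at 45.3 RPKM in WT replicate 1 and 54.2 RPKM in WT replicate 2, against 28.4 and 36.2 RPKM in the QKO day 2 libraries. The other mutated genes, Six5 and Mbnl1, are given below for WT only. The genotype of the libraries was not tested from the levels of Dmpk and Dmwd. What parts the day 2 libraries was not tested, and the label WT was kept for both.

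Day 2 cells had higher levels than day 1 cells in 1242 genes and lower levels in 595 by limma with Benjamini-Hochberg adjustment over all 11890 genes at 0.05, which is 10.4% and 5% of the genes tested. The counts of list members given below are to be set beside these 2 shares. In all 1837 genes called, both day 2 libraries lay on the same side of both day 1 libraries, as they did in 7655 of all genes tested. The change was at least 2-fold in 297 of the genes that rose and 190 of those that fell. Among the genes called higher the median change was 0.68 (log2) in replicate 1 and 0.77 in replicate 2, and among those called lower it was -0.69 in replicate 1 and -0.92 in replicate 2. Replicate 2 was farther from day 1 in 784 of the genes called higher and 457 of those called lower. With replicate 1 as the only day 2 library, 428 genes were called higher (3.6%) and 178 lower (1.5%), and with replicate 2 as the only one, 1126 higher (9.47%) and 689 lower (5.79%). Both single libraries called 335 genes higher, which is 78.3% of the replicate 1 calls and 29.8% of the replicate 2 calls, and 149 lower, which is 83.7% and 21.6%. Without day 1 replicate 1 the counts were 403 higher and 271 lower, and without day 1 replicate 2 they were 418 and 181. Of the 1837 genes, 387 were called in all 4 fits that each left out 1 of the 4 libraries, and below a gene is said to hold if it was one of them. Where a gene did not hold, the highest of its 4 adjusted p is given with the library left out. Calls higher made up 67.6% of all calls on the deposited scale, 51.6% after quantile normalization (746 higher and 700 lower) and 50.2% after median-ratio scaling (951 and 944).

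**Figure D1:**
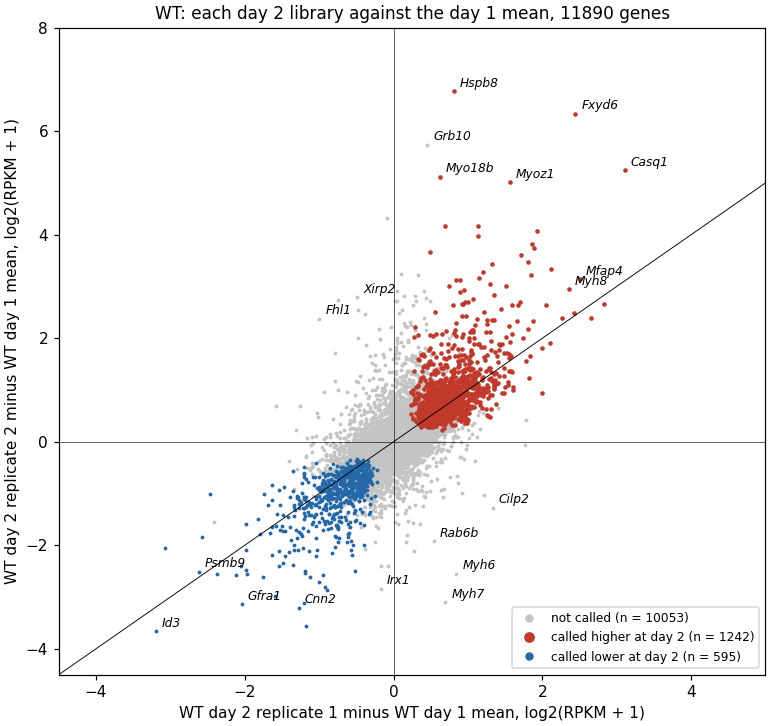
Each point is 1 of 11890 genes, with the day 2 replicate 1 value less the WT day 1 mean on the x axis and the day 2 replicate 2 value less the same mean on the y axis, both in log2(RPKM + 1). Red points are the 1242 genes called higher and blue points the 595 called lower at day 2, the diagonal marks equal values, and Hspb8, Grb10 and Myo18b lie far above it while Myh7 and Myh6 lie far below it.

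The perinatal myosin Myh8 and the adult fast myosin Myh4 rose, while Myh3, the most abundant chain, was not called. Of 11 sarcomeric myosin heavy chains, the motor proteins of the thick filament, 9 were tested and 2 rose, with a median change of 0.39 against 0.08 over all genes. That median was 0.69 in replicate 1 and 0.17 in replicate 2 of day 2, and 0.19 after quantile normalization. Myh8, the perinatal chain, was at 725 and 1091 RPKM at day 2 and at 179 and 111 RPKM at day 1, a rise of 2.65 ± 0.40 (log2 ± SE, adjusted p = 0.00138). It was higher in both day 2 libraries, and with either alone (adjusted p = 0.0172 with replicate 1 and 0.00154 with replicate 2). Myh4, the adult fast IIb chain, was at 14.3 and 50.5 RPKM at day 2 and at 4.90 and 5.50 RPKM at day 1 (2.18 ± 0.57, adjusted p = 0.0207). Myh8 held, and Myh4 did not (adjusted p = 0.223 without day 2 replicate 2, and also lost without either day 1 library). Myh3, the embryonic chain, was at 5369 and 2858 RPKM at day 2 and 4426 and 3506 RPKM at day 1 (-0.01 ± 0.33, adjusted p = 0.992). Myh1, the adult fast IIx chain, was at 245 RPKM in day 2 replicate 1 and 1164 RPKM in replicate 2, against 301 and 208 RPKM at day 1, so that only replicate 2 lay above day 1 (adjusted p = 0.204). Myh2, the IIa chain, was at 16.7 and 41.6 RPKM at day 2 and 11.7 and 7.21 RPKM at day 1 (adjusted p = 0.298).

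The proximal sequences of a few of these genes show which muscle-type motifs lie near their starts. They are RefSeq windows of GRCm38.p6, from 250 bases before to 50 bases after the start, for Myh8 and for 2 other genes that rose in each day 2 library. These are Dmd, which encodes dystrophin, the protein that ties the cytoskeleton to the cell membrane, and Casq1, which encodes the fast-fibre calcium buffer of the sarcoplasmic reticulum. Capitals mark matches on either strand to the E-box CANNTG, the kind of site that Myod1 and Myog bind, and to the MEF2 motif, the A- and T-rich site of Mef2 factors. The Myh8 window holds 1 MEF2 match (TTATTTATAG) and 2 E-boxes, the Dmd window 1 MEF2 match (TTATATTTAG) and 3 E-boxes, and the Casq1 window 2 E-boxes. A further RefSeq window of Dmd, farther downstream, held neither motif and is not printed.
Myh8 (chr11:67276874-67277173, forward strand): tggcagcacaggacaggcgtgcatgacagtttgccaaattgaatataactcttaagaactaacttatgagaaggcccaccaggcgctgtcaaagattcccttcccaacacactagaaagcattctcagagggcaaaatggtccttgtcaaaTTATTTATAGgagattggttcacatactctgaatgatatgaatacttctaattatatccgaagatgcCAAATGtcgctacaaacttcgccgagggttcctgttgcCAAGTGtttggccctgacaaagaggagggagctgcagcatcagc
Dmd (chrX:82948620-82948919, forward strand): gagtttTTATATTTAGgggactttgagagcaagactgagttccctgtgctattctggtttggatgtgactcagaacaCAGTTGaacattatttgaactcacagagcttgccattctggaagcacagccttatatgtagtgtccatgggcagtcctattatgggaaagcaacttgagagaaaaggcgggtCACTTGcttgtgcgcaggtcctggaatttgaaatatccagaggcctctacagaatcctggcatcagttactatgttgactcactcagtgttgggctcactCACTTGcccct
Casq1 (chr1:172219846-172220145, reverse strand): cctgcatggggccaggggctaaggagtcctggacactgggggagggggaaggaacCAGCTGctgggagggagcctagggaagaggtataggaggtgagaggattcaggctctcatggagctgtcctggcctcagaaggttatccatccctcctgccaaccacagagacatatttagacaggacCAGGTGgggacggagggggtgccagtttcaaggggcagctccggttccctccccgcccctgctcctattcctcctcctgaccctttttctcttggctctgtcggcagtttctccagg
Over 32851 RefSeq windows of this length, 72.3% held an E-box and 3.19% the MEF2 motif. Among the 27 genes called higher in the lists of contractile, calcium-handling and excitability proteins, 15 had a window, and 4 of their 16 windows (25%) held the MEF2 motif. Among the 95 tested genes of those lists that were not called higher, 13 of 90 windows (14.4%) held it. The E-box lay in 11 of the 16 windows (68.8%) of the genes called higher and in 73 of the 90 (81.1%) of those that were not. Over all genes called higher 2.68% of windows held the MEF2 motif, against 1.84% of windows of the genes tested. These are matches of letters, not measured sites.

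Tnni2 and Tnnc2, of the fast troponin complex, rose, and most other thin-filament genes did not pass. Of 19 tested actin, troponin and tropomyosin genes 2 rose (10.5%), 2 fell (10.5%) and 15 were not called, against 10.4% and 5% of all genes. Tnni2, the inhibitory subunit of fast troponin, was at 424 and 919 RPKM at day 2 and at 217 and 191 RPKM at day 1 (1.61 ± 0.36, adjusted p = 0.0104). Tnnc2, its calcium-binding partner, was at 1533 and 3221 RPKM at day 2 and 1023 and 1044 RPKM at day 1 (1.10 ± 0.32, adjusted p = 0.0326). In both genes replicate 2 was the higher day 2 library. Neither held (adjusted p = 0.119 for Tnni2 and 0.327 for Tnnc2 without it, and both calls were also lost without either day 1 library). Tpm3, a tropomyosin of slow fibres and non-muscle cells, fell to 23.2 and 13.8 RPKM at day 2, against 38.5 and 46.6 RPKM at day 1 (-1.20 ± 0.25, adjusted p = 0.00696). Lmod1, an actin nucleator of smooth muscle, fell to 2.97 and 1.24 RPKM at day 2, against 5.21 and 7.13 RPKM at day 1 (-1.25 ± 0.22, adjusted p = 0.00296). Lmod1 held and Tpm3 did not (adjusted p = 0.0853 without day 2 replicate 2, and also lost without day 1 replicate 2). Of 7 tested genes of myosin light chains and their kinases 0 passed in limma or voom, with 2 at an unadjusted p under 0.05. The most abundant, Mylpf, was at 6674 and 8147 RPKM at day 2 and at 6943 and 5802 RPKM at day 1 (adjusted p = 0.711).

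Of 41 Z-disc, M-band and sarcomere-assembly genes 8 rose and 1 fell, and their median change was -0.04 in replicate 1 and 0.42 in replicate 2. Tcap, the titin cap of the Z-disc, was at 106 and 215 RPKM at day 2 and 43.8 and 38.6 RPKM at day 1 (1.85 ± 0.46, adjusted p = 0.0168). Mybpc2, the fast myosin-binding protein C, was at 1.33 and 8.34 RPKM at day 2 and 0.204 and 0.302 RPKM at day 1 (1.90 ± 0.43, adjusted p = 0.0104). Myoz1, a calcineurin-binding protein of the fast-fibre Z-disc, was at 6.38 and 79.9 RPKM at day 2 and 1.27 and 1.75 RPKM at day 1 (3.29 ± 0.72, adjusted p = 0.00931). Myot, which cross-links actin at the Z-disc, was at 3.84 and 53.4 RPKM at day 2 and 1.87 and 2.14 RPKM at day 1 (2.43 ± 0.75, adjusted p = 0.0449). In Myoz1 and Myot replicate 2 was far above replicate 1. None of the 4 held: the highest adjusted p was 0.163 for Tcap and 0.412 for Myot without day 2 replicate 2, and 0.0675 for Mybpc2 and 0.0662 for Myoz1 without day 1 replicate 1, and all 4 calls were lost without either day 1 library. Of 23 dystrophin-complex genes 3 rose and none fell. Dmd was at 3.92 and 18.1 RPKM at day 2 and 0.398 and 0.301 RPKM at day 1 (2.84 ± 0.41, adjusted p = 0.00102), and it held.

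Genes of calcium release and membrane excitability were among the rises. Of 32 genes of excitation-contraction coupling, the release of calcium in response to the action potential, 8 (25%, against 10.4% of all genes) rose and none fell. Their median change was 0.10 in replicate 1 and 0.57 in replicate 2, against 0.08 over all genes in each library. Median-ratio scaling called 7 of the list higher and 1 lower. Casq1 had the largest of the 8 rises, at 136 and 601 RPKM at day 2 and 17.2 and 12.8 RPKM at day 1 (4.18 ± 0.56, adjusted p = 0.000616). It passed with replicate 1 alone (adjusted p = 0.00341) and replicate 2 alone (adjusted p = 1.41e-05). Camk2b, a calcium-calmodulin kinase, was at 4.98 and 10.7 RPKM at day 2 and 0.970 and 0.788 RPKM at day 1 (2.15 ± 0.24, adjusted p = 0.000212). Stim1, the store sensor that opens calcium entry, was at 53.6 and 64.1 RPKM at day 2 and 27.7 and 27.2 RPKM at day 1 (1.07 ± 0.18, adjusted p = 0.00241). Of 14 tested genes of muscle channels and pumps 7 (50%) rose and none fell, with a median change of 0.39 in replicate 1 and 1.44 in replicate 2. Scn4a, the adult skeletal muscle sodium channel, was at 23.4 and 28.3 RPKM at day 2 and 9.61 and 7.07 RPKM at day 1 (1.53 ± 0.20, adjusted p = 0.00053). Kcnj11, the pore of the ATP-sensitive potassium channel, was at 11.3 and 12.5 RPKM at day 2 and 3.63 and 3.69 RPKM at day 1 (1.47 ± 0.17, adjusted p = 0.000269). The 2 day 2 libraries were close to each other for Scn4a and Kcnj11. Casq1, Camk2b, Stim1, Scn4a and Kcnj11 held.

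Of 19 tested genes of the acetylcholine receptor and neuromuscular junction 3 rose (15.8%) and 1 fell (5.26%), against 10.4% and 5% of all genes. Chrne, the subunit that replaces gamma in the adult receptor, was at 2.33 and 3.30 RPKM at day 2 and 0.140 and 0.115 RPKM at day 1 (1.75 ± 0.33, adjusted p = 0.00407). Colq, which anchors acetylcholinesterase, was at 2.92 and 4.96 RPKM at day 2 and 1.19 and 1.40 RPKM at day 1 (1.07 ± 0.20, adjusted p = 0.00378). Dok7, an activator of the muscle-specific kinase MuSK, fell to 42.7 and 30.1 RPKM at day 2, against 53.8 and 59.2 RPKM at day 1 (-0.64 ± 0.17, adjusted p = 0.0226). Chrne and Colq held and Dok7 did not (adjusted p = 0.242 without day 2 replicate 2, and also lost without either day 1 library).

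**Figure D2:**
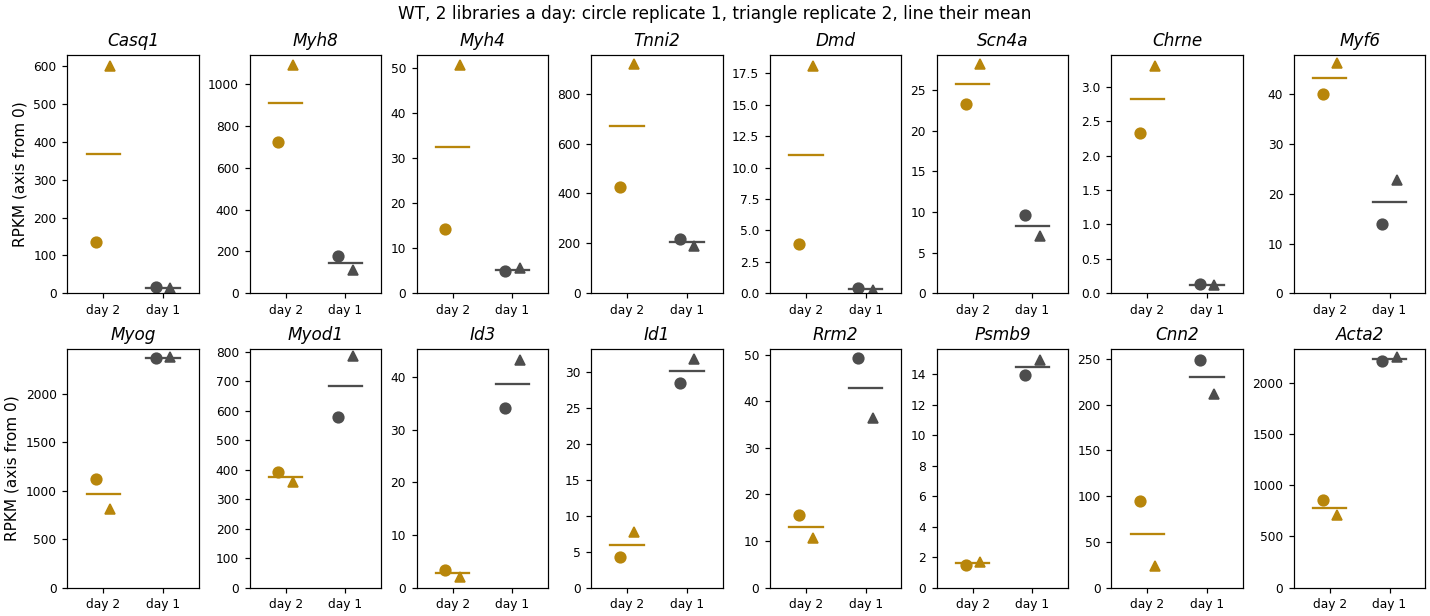
RPKM of 16 genes in the 2 WT day 2 libraries (left in each panel) and the 2 WT day 1 libraries (right), with each axis from 0, circles for replicate 1, triangles for replicate 2 and lines for the mean. Day 2 and day 1 do not overlap in any panel. All 16 genes were called, and none of the 1837 called genes overlapped, so this is no further check. Of all 11890 genes tested, 7655 did not overlap. In Casq1, Dmd and Myh4 day 2 replicate 2 is at 601, 18.1 and 50.5 RPKM, above replicate 1 at 136, 3.92 and 14.3 RPKM.

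Myog and Myod1, which start differentiation, fell and the late factor Myf6 rose. Of 34 tested myogenic regulators 2 rose and 6 fell. Myog was at 1122 and 812 RPKM at day 2 and 2362 and 2377 RPKM at day 1 (-1.31 ± 0.28, adjusted p = 0.0075), after 214 and 182 RPKM at day 0. Myod1 was at 393 and 360 RPKM at day 2 and 579 and 788 RPKM at day 1 (-0.84 ± 0.22, adjusted p = 0.0211). The groups did not overlap for either gene, as in all genes called. Neither held, with the highest adjusted p at 0.0822 for Myog without day 2 replicate 2 (also lost without either day 1 library) and 0.19 for Myod1 without day 1 replicate 2 (also lost without day 2 replicate 2). Myf6, the factor of mature fibres also called Mrf4, was at 40.03 and 46.3 RPKM at day 2 and 14.003 and 22.7 RPKM at day 1 (1.22 ± 0.23, adjusted p = 0.00402). Bhlhe40, a repressor of the same helix-loop-helix class, was at 11.9 and 35.0 RPKM at day 2 and 3.42 and 4.79 RPKM at day 1 (2.09 ± 0.34, adjusted p = 0.00176). Mef2c, a partner of the myogenic factors, was at 259 and 279 RPKM at day 2 and 198 and 179 RPKM at day 1 (0.51 ± 0.38, adjusted p = 0.399). Vgll2, a muscle cofactor of TEAD proteins, was at 44.2 and 37.4 RPKM at day 2 and 86.6 and 76.8 RPKM at day 1 (-0.99 ± 0.25, adjusted p = 0.0172). Bhlhe40 held, Myf6 was lost without day 1 replicate 1 (adjusted p = 0.0527), and Vgll2 without day 2 replicate 2 (0.125) or either day 1 library.

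Of the progenitor factors, Pax7, the early stem cell factor, was at 3.50 and 2.38 RPKM at day 2 and 3.75 and 6.03 RPKM at day 1 (adjusted p = 0.248). Myf5 was at 36.0 and 10.8 RPKM at day 2 and 16.1 and 23.3 RPKM at day 1, with the day 2 libraries on either side of both day 1 libraries (adjusted p = 0.973). Of 22 tested muscle stem cell markers 1 rose and 3 fell. Of 23 fusion genes 2 rose and 3 fell, with Jam3, an adhesion molecule, at 87.9 and 60.9 RPKM at day 2 and 147 and 177 RPKM at day 1 (-1.13 ± 0.20, adjusted p = 0.00294). Cdh15, the muscle cadherin, was at 184 and 128 RPKM at day 2 and 284 and 243 RPKM at day 1 (-0.77 ± 0.16, adjusted p = 0.008). Jam3 held and Cdh15 did not (adjusted p = 0.104 without day 2 replicate 2, and also lost without day 1 replicate 1).

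Id genes and Notch genes were among the falls. Of 20 tested genes of the Id and BMP list 4 fell and 1 rose. Id3 had the largest fall of the comparison, at 3.31 and 2.11 RPKM at day 2 and 34.1 and 43.2 RPKM at day 1 (-3.43 ± 0.28, adjusted p = 8.31e-05), after 286 and 541 RPKM at day 0. Id1 was at 4.24 and 7.75 RPKM at day 2 and 28.5 and 31.8 RPKM at day 1 (-2.20 ± 0.25, adjusted p = 0.000242), and Id2 was at 7.20 and 6.07 RPKM at day 2 and 16.0 and 18.4 RPKM at day 1 (-1.25 ± 0.20, adjusted p = 0.00181). The 3 Id genes, whose proteins bind and block helix-loop-helix partners, were lower in both day 2 libraries, and all 3 held. Of 19 tested Notch pathway genes 5 fell and 1 rose, against 5% of all genes falling. Rbpj, the DNA-binding partner of Notch, was at 12.7 and 11.7 RPKM at day 2 and 25.3 and 32.9 RPKM at day 1 (-1.18 ± 0.28, adjusted p = 0.0129). Dll1, a ligand, was at 6.03 and 5.89 RPKM at day 2 and 10.03 and 20.6 RPKM at day 1 (-1.15 ± 0.27, adjusted p = 0.0136). Notch1, a receptor, was at 12.3 and 6.35 RPKM at day 2 and 17.4 and 17.0 RPKM at day 1 (-0.88 ± 0.25, adjusted p = 0.0332). The target Hey1 was at 0.599 and 0.689 RPKM at day 2 and 1.76 and 2.17 RPKM at day 1 (-0.85 ± 0.20, adjusted p = 0.0143). None of these 4 held, with the highest adjusted p at 0.117 for Rbpj, 0.156 for Dll1 and 0.114 for Hey1 without day 1 replicate 2 and 0.333 for Notch1 without day 2 replicate 2, and all 4 calls were lost without either of these libraries, those of Notch1 and Hey1 also without day 1 replicate 1. With day 2 replicate 1 as the only day 2 library, 0 of the 19 Notch genes were called.

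Mki67, a proliferation marker, was at 1.90 and 0.306 RPKM at day 2 and 2.59 and 0.872 RPKM at day 1 (adjusted p = 0.609), after 47.9 and 43.4 RPKM at day 0. Of 71 mitosis genes 1 rose (1.41%) and 0 fell, against 10.4% and 5% of all genes. The median change was 0.10 in replicate 1 and -0.60 in replicate 2, whose sign thus differed. The mitosis list summed to 205 and 119 RPKM at day 2 and 226 and 159 RPKM at day 1. Over both day 2 libraries the change was below 0 in 64 of the 71 mitosis genes. Of 56 replication genes 5 rose and 2 fell. The split differed between fits, as quantile normalization called 1 higher and 5 lower, replicate 1 of day 2 alone 3 higher and 1 lower, and replicate 2 alone 2 higher and 8 lower. Rrm2, the inducible subunit of ribonucleotide reductase, was at 15.7 and 10.6 RPKM at day 2 and 49.2 and 36.4 RPKM at day 1 (-1.64 ± 0.22, adjusted p = 0.000571). Of 26 genes of cell cycle exit 3 rose (11.5%) and 4 fell (15.4%), against 10.4% and 5% of all genes. Cdkn1a, the inhibitor that keeps myotubes out of the cycle, was at 1049 and 1076 RPKM at day 2 and 1086 and 1262 RPKM at day 1 (adjusted p = 0.682). Gas1, a growth-arrest gene, fell to 15.3 and 6.92 RPKM at day 2, against 36.3 and 45.2 RPKM at day 1 (-1.87 ± 0.27, adjusted p = 0.00112). Rbl2, the pocket protein p130 of quiescent cells, was at 5.97 and 5.04 RPKM at day 2 and 2.43 and 2.24 RPKM at day 1 (0.96 ± 0.17, adjusted p = 0.00284). Rrm2, Gas1 and Rbl2 held.

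Some antigen-presentation and interferon-response genes fell. Of 54 tested members 13 (24.1%) fell, against 5% of all genes, and 0 rose, also in voom, while the median member changed by -0.13. The median was -0.15 in replicate 1, -0.08 in replicate 2 and -0.45 in voom. Psmb9, a subunit of the immunoproteasome, was at 1.51 and 1.70 RPKM at day 2 and 13.9 and 15.0 RPKM at day 1 (-2.57 ± 0.24, adjusted p = 0.000108), after 96.5 and 167 RPKM at day 0. Psmb8, a further subunit, was at 2.06 and 1.70 RPKM at day 2 and 12.5 and 17.6 RPKM at day 1 (-2.47 ± 0.22, adjusted p = 8.37e-05). The day 2 libraries were close to each other in both subunits. Guanylate-binding proteins also fell, with Gbp4 at 0.495 and 0.275 RPKM at day 2 and 3.16 and 3.24 RPKM at day 1 (-1.60 ± 0.25, adjusted p = 0.00162). Gbp9 was at 1.17 and 1.29 RPKM at day 2 and 4.29 and 6.02 RPKM at day 1 (-1.45 ± 0.22, adjusted p = 0.00126). H2-Q8 and H2-Q6, class I histocompatibility genes, also fell, with H2-Q8 at 7.10 and 4.90 RPKM at day 2 and 33.7 and 34.3 RPKM at day 1 (-2.34 ± 0.23, adjusted p = 0.000108). H2-Q6 was at 7.05 and 4.36 RPKM at day 2 and 30.5 and 30.7 RPKM at day 1 (-2.27 ± 0.24, adjusted p = 0.000179). Both are near-identical copies, among which reads may be split. Each gene named here held. Within the list 9 genes were called lower with replicate 1 alone and 12 with replicate 2 alone. The part of immune cells in these falls was not tested.

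B2m, the shared light chain of class I molecules, is shown for the interferon-type motif in its window, a pair of GAAA runs with 2 bases between them, and was chosen for its sequence after its values were seen. It was at 653 and 760 RPKM at day 2 and at 1527 and 1695 RPKM at day 1 (-1.19 ± 0.21, adjusted p = 0.00294). Capitals mark the match, on either strand, in the RefSeq window of GRCm38.p6.
B2m (chr2:122147437-122147736, forward strand): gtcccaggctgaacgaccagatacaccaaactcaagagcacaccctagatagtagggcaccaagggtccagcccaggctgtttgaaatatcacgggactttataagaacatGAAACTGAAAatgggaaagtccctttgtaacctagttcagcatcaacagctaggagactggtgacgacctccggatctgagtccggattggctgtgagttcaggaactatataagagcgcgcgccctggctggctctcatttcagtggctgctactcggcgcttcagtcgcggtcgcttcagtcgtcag
The motif lay in 3 of 12 windows (25%) of the falling genes of the list, of which 9 of 13 had a window, and in 3.44% of all 32851 windows. Its share among list members that did not fall was not computed. The 25% can therefore not be read as a trait of the falling genes. Over all genes called lower 2.61% of windows held it, against 2.96% of windows of the genes tested.

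Of 45 genes listed under glycolysis, glycogen and phosphocreatine 9 rose and 4 fell. Replicate 2 of day 2 alone also called 9 higher and 4 lower, but replicate 1 alone 2 higher and 3 lower. Ckmt2, the mitochondrial creatine kinase of muscle, was at 15.2 and 25.0 RPKM at day 2 and 5.52 and 3.08 RPKM at day 1 (1.996 ± 0.25, adjusted p = 0.000422). Mb, myoglobin, which stores oxygen and was counted in this list though outside these pathways, was at 206 and 349 RPKM at day 2 and 106 and 82.5 RPKM at day 1 (1.51 ± 0.45, adjusted p = 0.0368). Of 78 oxidative phosphorylation genes 0 rose, also in voom, and 4 were at an unadjusted p under 0.05. Quantile normalization called 3 of them higher and 1 lower. The 1 that fell was Cox8a, the isoform of a cytochrome oxidase subunit found in most tissues, at 161 and 152 RPKM at day 2 and 334 and 372 RPKM at day 1 (-1.17 ± 0.34, adjusted p = 0.0351). Of 27 genes of mitochondrial biogenesis and fatty acid oxidation 6 rose and 1 fell. Quantile normalization called 2 higher, median-ratio scaling 3, replicate 1 of day 2 alone 1 and replicate 2 alone 5, each with 1 lower. The fall was Cpt1a, the liver-type carnitine transferase, at 3.14 and 2.44 RPKM at day 2 and 7.11 and 9.32 RPKM at day 1 (-1.28 ± 0.22, adjusted p = 0.00236). Of 39 genes of cholesterol and fatty acid synthesis 8 rose and 6 fell. Scd1, a desaturase, was at 82.0 and 109 RPKM at day 2 and 34.6 and 34.8 RPKM at day 1 (1.42 ± 0.38, adjusted p = 0.0233), and Fads2, another desaturase, was at 31.4 and 30.5 RPKM at day 2 and 12.7 and 10.4 RPKM at day 1 (1.35 ± 0.25, adjusted p = 0.00341). Ckmt2, Cpt1a and Fads2 held. Mb (adjusted p = 0.257) and Scd1 (0.155) were lost without day 2 replicate 2 or either day 1 library, and Cox8a with any of the 4 left out (0.169 without day 1 replicate 2).

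Of 77 ribosomal protein genes 0 were called in limma or voom, with 4 at an unadjusted p under 0.05, and quantile normalization called 2 lower. The change was nevertheless below 0 in 76 of the 77, with a median of -0.35, -0.54 in replicate 1 and -0.17 in replicate 2. The list summed to 25107 and 31255 RPKM at day 2 and 35625 and 35545 RPKM at day 1. The most abundant were Rpl13, at 759 and 839 RPKM at day 2 and 1040 and 980 RPKM at day 1, and Rpl10, at 874 and 861 RPKM at day 2 and 898 and 888 RPKM at day 1. Among the genes with the shortest 10% of transcripts the median change was 0.03, and among the longest 10% it was 0.06. Of 31 splicing regulators 7 fell and 2 rose. Hnrnpa1, a general splicing repressor, was at 94.2 and 82.5 RPKM at day 2 and 168 and 187 RPKM at day 1 (-0.998 ± 0.15, adjusted p = 0.00136). Rbfox1, a splicing factor of muscle and neurons, was at 20.4 and 35.6 RPKM at day 2 and 12.4 and 8.83 RPKM at day 1 (1.29 ± 0.25, adjusted p = 0.00446). The stress list of 37 genes was split, with 5 rises (13.5%) and 5 falls (13.5%), against 10.4% and 5% of all genes. Among its rises, Trib3 was at 5.23 and 7.46 RPKM at day 2 and 1.20 and 1.34 RPKM at day 1 (1.68 ± 0.34, adjusted p = 0.00653), and Chac1 at 9.06 and 10.4 RPKM at day 2 and 2.67 and 2.31 RPKM at day 1 (1.62 ± 0.25, adjusted p = 0.00157), both targets of the stress factor ATF4. Fgf21, a secreted metabolic hormone and a further ATF4 target, was at 13.1 and 51.6 RPKM at day 2 and 3.59 and 3.02 RPKM at day 1 (2.67 ± 0.42, adjusted p = 0.00164). Hnrnpa1, Chac1 and Fgf21 held. Trib3 was lost without day 2 replicate 2 (adjusted p = 0.0663), and Rbfox1 without that library or day 1 replicate 2 (0.06).

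Several actin-linked genes known from smooth muscle fell. Acta2, smooth muscle actin, which immature skeletal muscle also makes, was at 852 and 706 RPKM at day 2 and 2209 and 2248 RPKM at day 1 (-1.52 ± 0.19, adjusted p = 0.000416). Myl9, a regulatory light chain, was at 25.6 and 23.8 RPKM at day 2 and 126 and 86.3 RPKM at day 1 (-2.04 ± 0.26, adjusted p = 0.000422). Tagln, an actin-binding protein, was at 21.0 and 17.5 RPKM at day 2 and 97.6 and 36.4 RPKM at day 1 (-1.59 ± 0.36, adjusted p = 0.0113), and Cnn2, a calponin, was at 94.3 and 24.0 RPKM at day 2 and 249 and 211 RPKM at day 1 (-2.24 ± 0.44, adjusted p = 0.00497). The defining smooth muscle markers Myh11 and Cnn1 were at most 0.0987 RPKM in the 4 libraries. The 14 markers of pericytes and smooth muscle summed to 2334 and 2579 RPKM at day 2 and 3683 and 3546 RPKM at day 1. Most of that sum was Acta2 and Des, both also made by skeletal muscle. Des was not lower at day 2, at 1317 and 1732 RPKM against 1133 and 1057 RPKM at day 1. Of the 11 markers tested, 3 were called lower and 1, Mylk, called higher. Acta2, Myl9 and Cnn2 held, Tagln was lost without day 1 replicate 1 (adjusted p = 0.113) or day 2 replicate 2, and Mylk without day 1 replicate 2 (0.05004). The part of such cells in these falls was not tested.

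Matrix and secreted genes moved both ways. Of 22 tested collagen genes 4 rose (18.2%) and 3 fell (13.6%), against 10.4% and 5% of all genes. Col25a1, a membrane collagen of muscle needed for motor innervation, was at 30.6 and 22.4 RPKM at day 2 and 10.5 and 9.33 RPKM at day 1 (1.32 ± 0.26, adjusted p = 0.00526). Col6a1 was at 2.99 and 0.783 RPKM at day 2 and 6.77 and 7.68 RPKM at day 1 (-1.62 ± 0.29, adjusted p = 0.00341). Mfap4, a microfibril protein, was at 78.8 and 123 RPKM at day 2 and 20.04 and 8.40 RPKM at day 1 (2.82 ± 0.36, adjusted p = 0.000489). Of 19 markers of fibroblasts and fibro-adipogenic progenitors 14 were under 1 RPKM in all 4 libraries, and the list summed to 329.7 and 250.5 RPKM at day 2 and 227 and 241 RPKM at day 1. Most of that sum was Scx, a tendon transcription factor, at 243 and 160.0 RPKM at day 2 and 135 and 119 RPKM at day 1 (adjusted p = 0.136), and Gsn, an actin-severing protein, at 72.9 and 78.1 RPKM at day 2 and 72.4 and 102 RPKM at day 1 (adjusted p = 0.548). Col3a1, a fibrillar collagen, was at 10.9 and 8.27 RPKM at day 2 and 16.7 and 15.2 RPKM at day 1 (-0.69 ± 0.19, adjusted p = 0.0271), with an adjusted p of 0.225 without replicate 2 of day 2. Scx and Gsn were chosen after their values were seen, and the part of such cells in other results was not tested. Of 22 tested genes of myostatin, activin and TGF-beta signalling 0 passed, with 1 at an unadjusted p under 0.05 and 1 called higher in voom. Of these the most abundant, Tgfb3, was at 148 and 117 RPKM at day 2 and 163 and 147 RPKM at day 1 (adjusted p = 0.525). Gfra1, a receptor for glial-derived neurotrophic factor, was at 3.22 and 0.970 RPKM at day 2 and 16.2 and 16.6 RPKM at day 1 (-2.59 ± 0.28, adjusted p = 0.000185). Car3, the carbonic anhydrase of slow fibres, was at 25.8 and 53.3 RPKM at day 2 and 332 and 152 RPKM at day 1 (-2.57 ± 0.74, adjusted p = 0.0333). Col6a1, Mfap4 and Gfra1 held, Col25a1 was lost without day 1 replicate 2 (adjusted p = 0.0522), and Car3 with any of the 4 left out (0.217 without day 1 replicate 1).

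**Figure D3:**
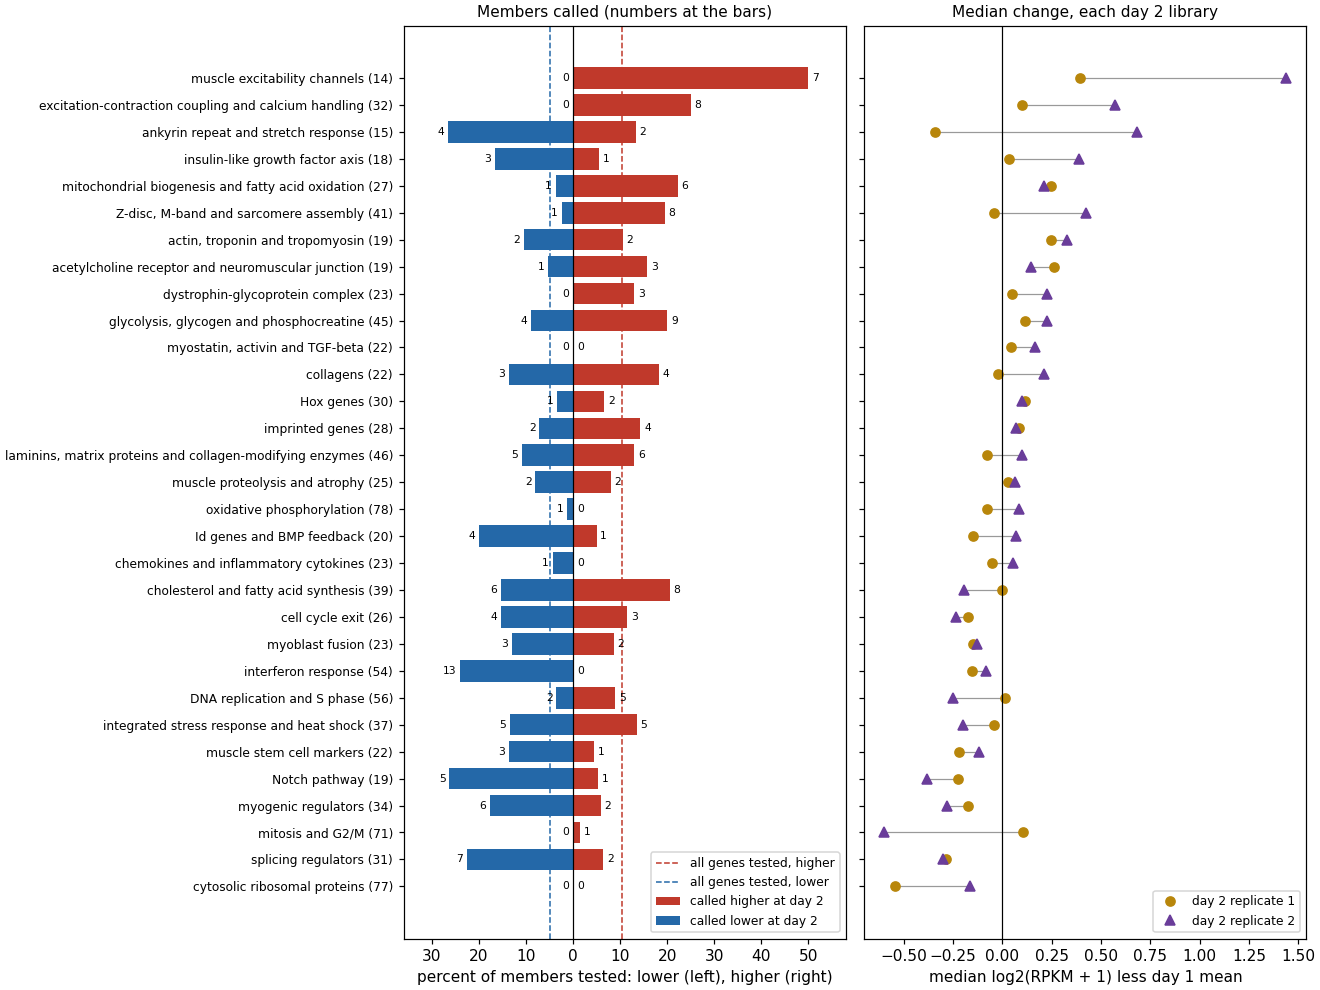
For 31 gene lists with at least 14 members tested (number in brackets), the left panel gives the percentage of members called higher (right of 0) and lower (left of 0), with dashed lines at 10.4% and 5% for all genes, and the right panel the median change in each day 2 library in log2(RPKM + 1). Excitability channels have 7 of 14 members called higher and interferon-response genes 13 of 54 called lower, and the medians of mitosis genes are 0.10 in replicate 1 and -0.60 in replicate 2.

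The genes farthest apart between the day 2 libraries are given here beside the mutants' levels. Hspb8, a small heat shock protein of chaperone-assisted autophagy, was at 4.44 RPKM in replicate 1 and 339 RPKM in replicate 2, against 2.09 and 2.11 RPKM at day 1. The 4 mutant day 2 libraries were at 231 to 360 RPKM and the 4 mutant day 1 libraries at 314 to 464 RPKM. The test over both day 2 libraries called it higher (3.79 ± 1.19, adjusted p = 0.0465), and replicate 1 alone did not (adjusted p = 0.23). Grb10, an imprinted adaptor that damps insulin signalling, was at 1.44 RPKM in replicate 1 and 94.4 RPKM in replicate 2, against 0.758 and 0.821 RPKM at day 1 and 49.7 to 99.3 RPKM in the mutant day 2 libraries (adjusted p = 0.0659). Myo18b, an unconventional myosin of the sarcomere, was at 0.653 RPKM in replicate 1 and 36.3 RPKM in replicate 2, against 0.0671 and 0.0809 RPKM at day 1 (2.87 ± 0.89, adjusted p = 0.045). Mutant day 2 libraries had 12.8 to 30.2 RPKM of Myo18b, between the WT day 2 libraries. Myo18b did not hold (adjusted p = 0.186 without replicate 2). Hspb8 and Myo18b were also lost without either day 1 library. Fxyd6, a regulator of the sodium pump, was at 13.1 RPKM in replicate 1 and 209 RPKM in replicate 2, against 1.56 and 1.62 RPKM at day 1, and was called higher with either library alone (adjusted p = 0.000951 with replicate 1 and 1.73e-07 with replicate 2). Fhl1, a LIM-domain protein of muscle, was at 9.54 RPKM in replicate 1 and 108 RPKM in replicate 2, on either side of the 21.0 and 19.1 RPKM at day 1. Alone, replicate 1 called Fhl1 lower (-0.997, adjusted p = 0.0154) and replicate 2 called it higher (2.38, adjusted p = 7.93e-06).

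Other genes were lower in replicate 2. Myh7, the slow and cardiac beta myosin, was at 230 RPKM in replicate 1 and 15.7 RPKM in replicate 2, against 227 and 88.2 RPKM at day 1 (-1.20 ± 1.08, adjusted p = 0.501). The mutant day 2 libraries were at 5.50 to 36.2 RPKM for Myh7. Myh6, the cardiac alpha chain, was at 33.4 RPKM in replicate 1 and 2.26 RPKM in replicate 2, against 27.2 and 11.99 RPKM at day 1 and 0.108 to 0.687 RPKM in mutant day 2 libraries. Irx1, a homeobox factor, was at 5.73 RPKM in replicate 1 and 0.0581 RPKM in replicate 2, against 7.14 and 6.09 RPKM at day 1 and at most 0.0467 RPKM in mutant day 2 libraries (adjusted p = 0.0698). Cilp2, a matrix protein, was at 18.5 RPKM in replicate 1 and 2.21 RPKM in replicate 2, again on either side of day 1 (7.05 and 6.45 RPKM). Ankrd2, a stretch-response protein of slow fibres, fell in both libraries, to 11.5 RPKM in replicate 1 and 1.42 RPKM in replicate 2, against 34.8 and 21.5 RPKM at day 1 (-2.37 ± 0.55, adjusted p = 0.0118). Its relative Ankrd23 rose, at 76.2 and 243 RPKM at day 2 and 26.3 and 16.7 RPKM at day 1 (2.64 ± 0.42, adjusted p = 0.00164) and held, while Ankrd2 did not (adjusted p = 0.101 without day 1 replicate 1, and also lost without day 2 replicate 2). Of the 421 genes at least 2-fold apart, 126 were called, 86 higher and 40 lower, so that 1711 of the 1837 calls were in genes whose day 2 libraries differed by less than 2-fold.

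**Figure D4:**
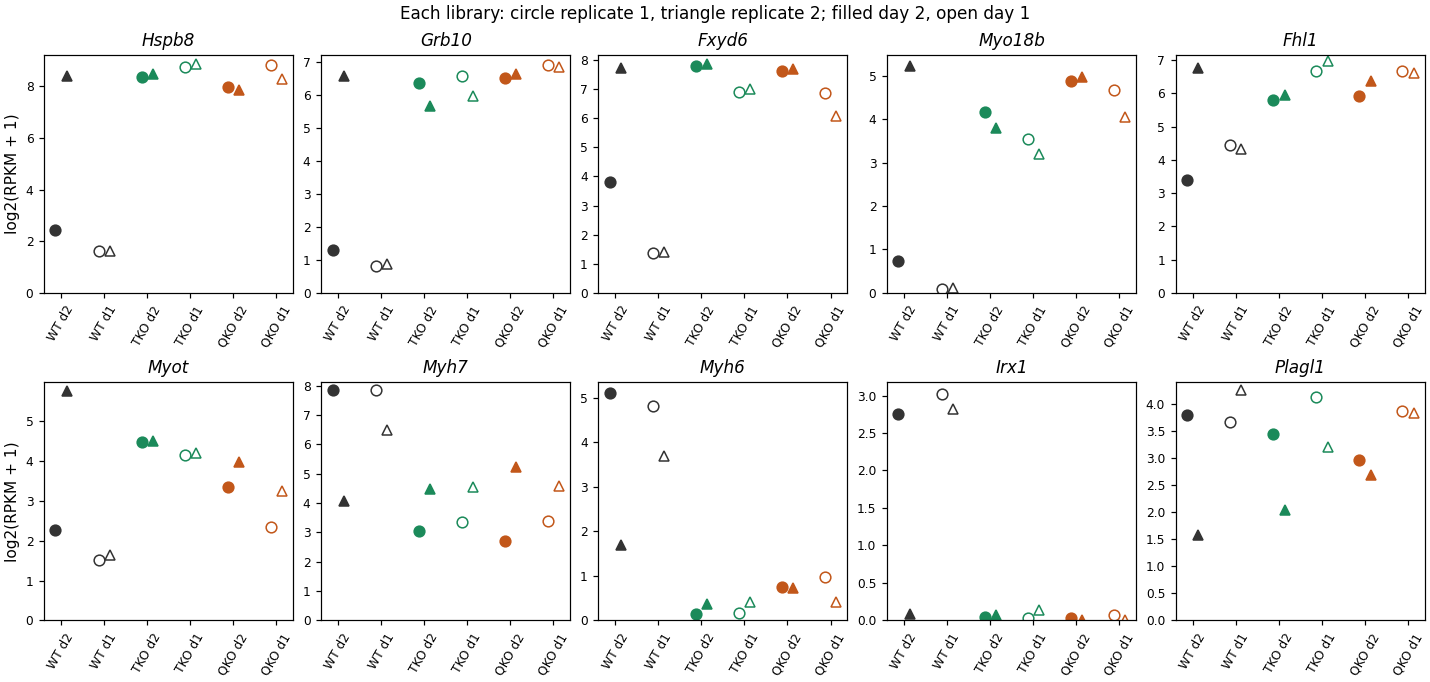
Levels in log2(RPKM + 1) of 10 genes among those farthest apart between the WT day 2 libraries, with filled symbols for day 2, open ones for day 1, circles for replicate 1 and triangles for replicate 2. For Hspb8, Grb10 and Irx1 the WT day 2 circle lies near the WT day 1 libraries and the triangle near the mutants.

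The change of WT cells was set against that of the mutants over the same days by the difference of the 2 changes. TKO cells gave none of 11890 genes (0%) with a called difference, 488 at an unadjusted p under 0.05, and none with limma voom on recovered reads. QKO cells gave 1 (0.00841%), with 631 at an unadjusted p under 0.05 and none with voom. That gene was Aldh1a1, a retinaldehyde dehydrogenase, whose WT level was 0.339 and 0.0982 RPKM at day 2 and 0.413 and 0.372 RPKM at day 1. In QKO it was at 0.803 and 0.921 RPKM at day 2 and 6.64 and 6.56 RPKM at day 1, a difference of changes of 1.83 ± 0.16 (adjusted p = 0.000426). Its WT change itself was not called (-0.20 ± 0.12, adjusted p = 0.274). With replicate 2 as the only WT day 2 library, 162 genes differed from the TKO change (117 higher and 45 lower) and 156 from the QKO change (119 and 37). With replicate 1 as the only one, 0 and 1 did. Of the targeted genes only Six5, a homeobox factor, changed in WT by this test, at 1.48 and 1.66 RPKM at day 2 and 0.710 and 0.882 RPKM at day 1 (0.52 ± 0.16, adjusted p = 0.048), and it was lost with any of the 4 libraries left out (adjusted p = 0.228 without day 1 replicate 1) and in voom. Mbnl1, the splicing regulator, was at 12.1 and 15.6 RPKM at day 2 and 10.3 and 11.1 RPKM at day 1 (adjusted p = 0.496).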

How the data were processed

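The authors made libraries from total RNA, used HISAT2 2.0.5 for alignment and the GRCm38.p5 build per the labels and deposited RPKM values for 22013 rows and 18 libraries, 2 in each of 9 groups. Of rows with the same symbol only that of the highest mean entered (1401 left out, 20612 genes). Whole reads, lengths and depths were recovered from the steps of the RPKM values (99.96% of 16548 rows whole within 0.02 of a read). The worth of 1 read limits the precision of low values.

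log2(RPKM + 1) values of the 11890 genes tested were fitted with limma 3.58.1 in R 4.3.3, 1 mean per group, 9 residual degrees of freedom, trend and robust settings and Benjamini-Hochberg adjustment, threshold 0.05. Fold changes are on that scale, which understates low genes. Single-library values use the same fit without the other library, whose spread is then that of the other groups. The fit was tested on simulated data in which no library departed from its partner. That test does not cover day 2 libraries that stand apart.

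The members and gene lists were chosen with earlier results of these data known. Genes named were the largest changes (mean RPKM of at least 5, no overlap), up to 4 called members per list, the genes parting the day 2 libraries, those differing from a mutant and a fixed set of myogenic genes. Some genes that the rule allows are not reported here. Motifs were read from RefSeq windows.

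Alternatives were pseudocounts of 0.1 and 0.5, other filters, quantile and median-ratio scaling, voom on recovered reads, fewer libraries, a 2-fold threshold, a replicate block and each library left out. The fit of the 12 day 1 and day 2 libraries was added after seeing the data. Python 3.11.15, pandas 2.3.3 and Matplotlib 3.10.9 were used.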

Additional observations from a re-analysis of the deposited data

Results flagged for a closer look

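The change of Aldh1a1 between day 1 and day 2 differed between genotypes by a test of the difference itself, with the WT change less the QKO change at 1.83 ± 0.16 (log2 scale, adjusted p = 0.000426 by limma over all genes). Aldh1a1 was under 1 RPKM in all 4 WT libraries, and in QKO it was at 0.803 and 0.921 RPKM at day 2, against 6.64 and 6.56 RPKM at day 1. The same difference was not called with a pseudocount of 0.1 or in voom on recovered reads.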

How the results depend on the processing

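With a mean RPKM of at least 5, 692 genes were called higher, and with a 2-fold threshold 297 higher and 190 lower. Quantile normalization called 746 higher and median-ratio scaling 944 lower. A fit of only the 4 WT day 1 and day 2 libraries called 326 higher and 171 lower, and one of only the 6 WT libraries 0 and 0, with 2162 genes at an unadjusted p under 0.05. Fitting only the 12 day 1 and day 2 libraries, an alternative chosen after seeing the data, called 2021 higher and 1086 lower, including 1810 of the 1837 calls. Voom on recovered reads called 1241 higher and 526 lower and shared 1666 calls. Leaving out 1 library gave 403 to 1126 higher and 178 to 689 lower, 0 to 162 genes that differed from the TKO change and 1 to 156 from the QKO change, the highest of each without day 2 replicate 1, in which the lone library is assumed to vary like the other groups. Without a filter 3 genes differed from the TKO change, and a pseudocount of 0.1, a mean RPKM of at least 5 and voom each left 0 that differed from the QKO change. The cause of these shifts was not tested. Among 162 genes named by rule, 126 were called, of which 112 were still called after quantile normalization, 119 after median-ratio scaling and 118 in voom. Of the 126, 105 were still called with no filter, 52 with only the 4 WT day 1 and day 2 libraries and 0 with only the 6 WT libraries. Without replicates 1 and 2 of day 2 in turn 114 and 68 were, and without those of day 1 72 and 64. Leaving out 1 library moved Fhl1 over -0.997 to 2.38 (the lowest without replicate 2 of day 2) and Cilp2 over -1.27 to 1.33 (the lowest without replicate 1), so that both changed sign, and no other named gene that was called in either fit did so. Nothing states whether the replicate numbers pair the samples. Deviations of same-numbered libraries correlated at 0.06 to 0.13 between days, over genes and from a single difference per day, which cannot decide it. The replicate block within genotype gave 1229 higher and 625 lower, 0 genes that differed from the TKO change and 1 from the QKO change.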

Other observations

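Imprinted genes, those expressed from the copy of 1 parent, were called in 6 of 28 cases. These were 4 rises (14.3%) and 2 falls (7.14%), against 10.4% and 5% of all genes. Mest was at 60.6 and 21.0 RPKM at day 2 and 110 and 161 RPKM at day 1 (-1.87 ± 0.47, adjusted p = 0.0176). Snrpn, a splicing protein gene, was at 10.5 and 11.3 RPKM at day 2 and 5.22 and 4.46 RPKM at day 1 (1.03 ± 0.19, adjusted p = 0.00387), and Snurf, which shares its transcript, was at 12.4 and 13.001 RPKM at day 2 and 5.73 and 4.91 RPKM at day 1 (1.12 ± 0.19, adjusted p = 0.00228). Reads of these overlapping genes cannot be told apart. Snrpn and Snurf were called in all 4 fits that left out 1 library, and Mest was not (adjusted p = 0.197 without day 2 replicate 2, and also lost without either day 1 library). Of 30 tested Hox genes, which pattern the body axis, 2 were called higher (6.67%) and 1 lower (3.33%), against 10.4% and 5% of all genes. Their median change was 0.116 in replicate 1 and 0.098 in replicate 2 of day 2.

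Other large changes were in genes outside the lists. Prkcq, a protein kinase C of muscle and T cells, was at 4.61 and 23.7 RPKM at day 2 and 0.557 and 0.397 RPKM at day 1 (2.996 ± 0.45, adjusted p = 0.00125). Msln, mesothelin, was at 42.5 and 37.5 RPKM at day 2 and 5.99 and 4.32 RPKM at day 1 (2.75 ± 0.50, adjusted p = 0.00351). Sct, the hormone secretin, was at 0.773 and 0.254 RPKM at day 2 and 6.04 and 5.92 RPKM at day 1 (-2.23 ± 0.33, adjusted p = 0.00124). Rab3il1, an exchange factor for Rab proteins, was at 8.01 and 2.44 RPKM at day 2 and 23.8 and 28.9 RPKM at day 1 (-2.29 ± 0.38, adjusted p = 0.0021). Olfml2b, a secreted olfactomedin, was at 9.11 and 6.89 RPKM at day 2 and 30.5 and 54.5 RPKM at day 1 (-2.23 ± 0.38, adjusted p = 0.00235). These 5 genes were chosen among those without overlap between day 2 and day 1, so their lack of overlap is no further check.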
